A study of Mus musculus with 24 samples.

Results

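The genes described here are 10 members of the PDGF, FGF and HGF stromal growth factor pathways, chosen by name among 34285 genes counted at least once. They are the ligands Pdgfa, Pdgfb, Pdgfc, Fgf2, Fgf7, Fgf10 and Hgf, and the receptors Pdgfra, Pdgfrb and Fgfr1. All 10 passed the filter on low counts, which kept 16258 genes. These members were chosen with earlier results of these data known, so counts of members called describe the list and do not test it. They were measured by RNA sequencing in mouse pulmonary fibroblasts in culture, in 24 libraries from 8 conditions with 3 libraries each. The cells came from C57BL/6 wild type (WT) animals and from TLR4-/- animals on that background, aged 4 to 8 weeks, with a pool of 3 to 4 lungs behind each group of cells. At passages 3 to 6, after a night in reduced serum medium, cells of each genotype received PBS, 1 µg/ml rmCIRP (recombinant mouse cold-inducible RNA-binding protein), 2 ng/ml rmTGF-β1 (recombinant mouse transforming growth factor β1), or both, for 24 h. The labels do not say that the libraries of a condition came from separate cultures or animals, so p-values measure the spread between these libraries, which may be technical. In such bulk samples, fewer cells of a type and less RNA per cell cannot be told apart.

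PDGF ligands are paired chains that activate the receptor kinases PDGFRα and PDGFRβ on mesenchymal cells and drive their growth and migration. FGF2 acts on fibroblasts themselves through FGFR1, whereas FGF7, FGF10 and HGF are made by lung fibroblasts and act mainly on the neighbouring epithelium, FGF7 and FGF10 through FGFR2 and HGF through the receptor MET. TGF-β1 is a profibrotic cytokine that signals through SMAD proteins, and extracellular CIRP is a danger signal that binds TLR4, a receptor whose signalling activates NF-κB.

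The reads counted on genes ran from 29853346 to 39664606 per library. Tlr4 mRNA was not lower in the libraries labelled TLR4-/-, at 702 to 941 normalized counts (reads divided by a size factor of the library) against 630 to 802 in WT libraries. With PBS it was 1.19-fold higher under that label (edgeR, adjusted p = 0.00123). A count over the whole gene does not show whether part of it is deleted, so TLR4-/- is used here only as the label. All 8 fibroblast markers were counted in every condition. The summed level of 13 macrophage markers was 325740 to 374933 normalized counts in libraries labelled TLR4-/- with PBS and 89358 to 97194 in WT libraries with PBS. The sum of 6 epithelial markers was 41.6 to 63.5 in WT libraries with PBS and 189.7 to 201 in those labelled TLR4-/- with PBS, at most 226 in any library, mostly Krt8 and Cdh1, while Sftpc, Sftpb and Scgb1a1 were at 5.57 or less. Library 3 labelled TLR4-/- with rmCIRP+rmTGF-β1 stood apart from its replicates, with a chi-square per degree of freedom of 45.7 and 31.3 against them. Library 3 labelled TLR4-/- with rmTGF-β1 did so less, at 11.9 and 15.6, where the other replicate pairs lay between 2.52 and 7.03.

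Sequences upstream of 5 members are shown first. Of these, Fgf7, Fgf10, Hgf and Pdgfra were called lower with rmTGF-β1 in at least 2 comparisons and lower in libraries labelled TLR4-/-. Pdgfc went the other way and rose with rmTGF-β1. The sequences are the 250 bases before the RefSeq start on build GRCm38.p6, all on the plus strand. That build differs from the one named in the submitters' processing notes (NCBIM37). For Hgf, which has 2 starts in the table, the first is shown. Capitals mark CAGAC or its complement GTCTG, the short box contacted by SMAD proteins, and GGGCGG or its complement CCGCCC, the GC box of Sp1-type factors.
Fgf7: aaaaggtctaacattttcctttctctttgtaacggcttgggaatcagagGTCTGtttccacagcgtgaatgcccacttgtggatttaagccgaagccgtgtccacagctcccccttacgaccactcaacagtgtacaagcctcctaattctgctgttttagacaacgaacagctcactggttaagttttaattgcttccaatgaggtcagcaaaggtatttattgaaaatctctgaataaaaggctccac
Fgf10: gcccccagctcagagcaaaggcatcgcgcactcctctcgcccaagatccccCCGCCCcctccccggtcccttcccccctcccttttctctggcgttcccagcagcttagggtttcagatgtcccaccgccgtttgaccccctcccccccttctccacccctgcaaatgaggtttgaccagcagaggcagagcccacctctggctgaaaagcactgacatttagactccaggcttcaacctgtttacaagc
Hgf: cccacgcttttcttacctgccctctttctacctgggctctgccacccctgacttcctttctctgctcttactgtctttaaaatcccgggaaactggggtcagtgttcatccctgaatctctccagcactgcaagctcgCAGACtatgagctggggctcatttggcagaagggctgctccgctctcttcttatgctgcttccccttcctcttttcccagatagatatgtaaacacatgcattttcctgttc
Pdgfra: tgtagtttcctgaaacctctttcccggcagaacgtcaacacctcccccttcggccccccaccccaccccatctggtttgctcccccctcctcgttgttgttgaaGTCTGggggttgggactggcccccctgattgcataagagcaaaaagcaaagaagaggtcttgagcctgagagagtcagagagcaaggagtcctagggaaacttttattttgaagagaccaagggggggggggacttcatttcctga
Pdgfc: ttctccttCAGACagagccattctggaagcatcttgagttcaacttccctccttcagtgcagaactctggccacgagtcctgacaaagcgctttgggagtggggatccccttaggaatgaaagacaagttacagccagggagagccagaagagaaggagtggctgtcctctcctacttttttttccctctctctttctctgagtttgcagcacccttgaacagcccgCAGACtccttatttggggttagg
These windows lie at chr2:126034408-126034657 for Fgf7, chr13:118714449-118714698 for Fgf10, chr5:16553245-16553494 for Hgf, chr5:75152001-75152250 for Pdgfra and chr3:81036166-81036415 for Pdgfc.

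The SMAD box was found 2 times in the window of Pdgfc and 1 time each in those of Fgf7, Hgf and Pdgfra, while that of Fgf10 held 1 GC box and no SMAD box. Of the members with an entry that are not printed, Fgf2 had 1 SMAD box and 1 GC box, and Pdgfa, which rose with rmTGF-β1 in both genotypes, had no SMAD box in either of its 2 windows and 1 and 2 GC boxes. Searched on both strands, the SMAD box is in 42.2% and the GC box in 32.7% of all 32851 promoter windows of this length, so single matches are common. The letters of the AP-1 site (TGANTCA, in 6.75% of windows), the NF-κB site (0.356%), the SMAD palindrome (GTCTAGAC, 0.167%) and the TATA box (TATAAA, 12.4%) were in none of the windows of these 7 members. None of these motifs contains another. Promoter entries matched 7 of the 10 members, and Pdgfb, Pdgfrb and Fgfr1 are named only.

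With PBS, WT fibroblast cultures carried most of these messages at high level. Macrophage markers were also counted in these cultures, so a message cannot be assigned to fibroblasts alone. Normalized counts per kilobase of exon, the scale on which genes can be compared, were highest for Fgf7 (3867), Pdgfrb (3335) and Fgf2 (2596), followed by Fgfr1 (1249.8), Fgf10 (1160.1) and Pdgfra (785). The lower members were Pdgfa at 697, Hgf at 381, Pdgfc at 167 and Pdgfb at 44.4 normalized counts per kilobase. Across the 8 conditions the levels of some members moved widely and those of others hardly at all. Condition means of normalized counts differed by 9.33-fold between the highest and the lowest for Fgf10, by 7.77-fold for Hgf, by 6.34-fold for Pdgfb, by 4.30-fold for Pdgfra and by 3.16-fold for Fgf7. The range was 2.37-fold for Pdgfc, 1.83-fold for Fgf2, 1.62-fold for Pdgfa, 1.497-fold for Fgfr1 and 1.36-fold for Pdgfrb. Fgf7, Fgf10, Hgf and Pdgfra had their lowest mean in TLR4-/- with rmTGF-β1 and their highest in WT with rmCIRP. At the top, however, the libraries of Fgf10 and Hgf overlapped those of WT with PBS, and at the bottom those of Fgf10 overlapped TLR4-/- with both factors.

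**Figure D1:**
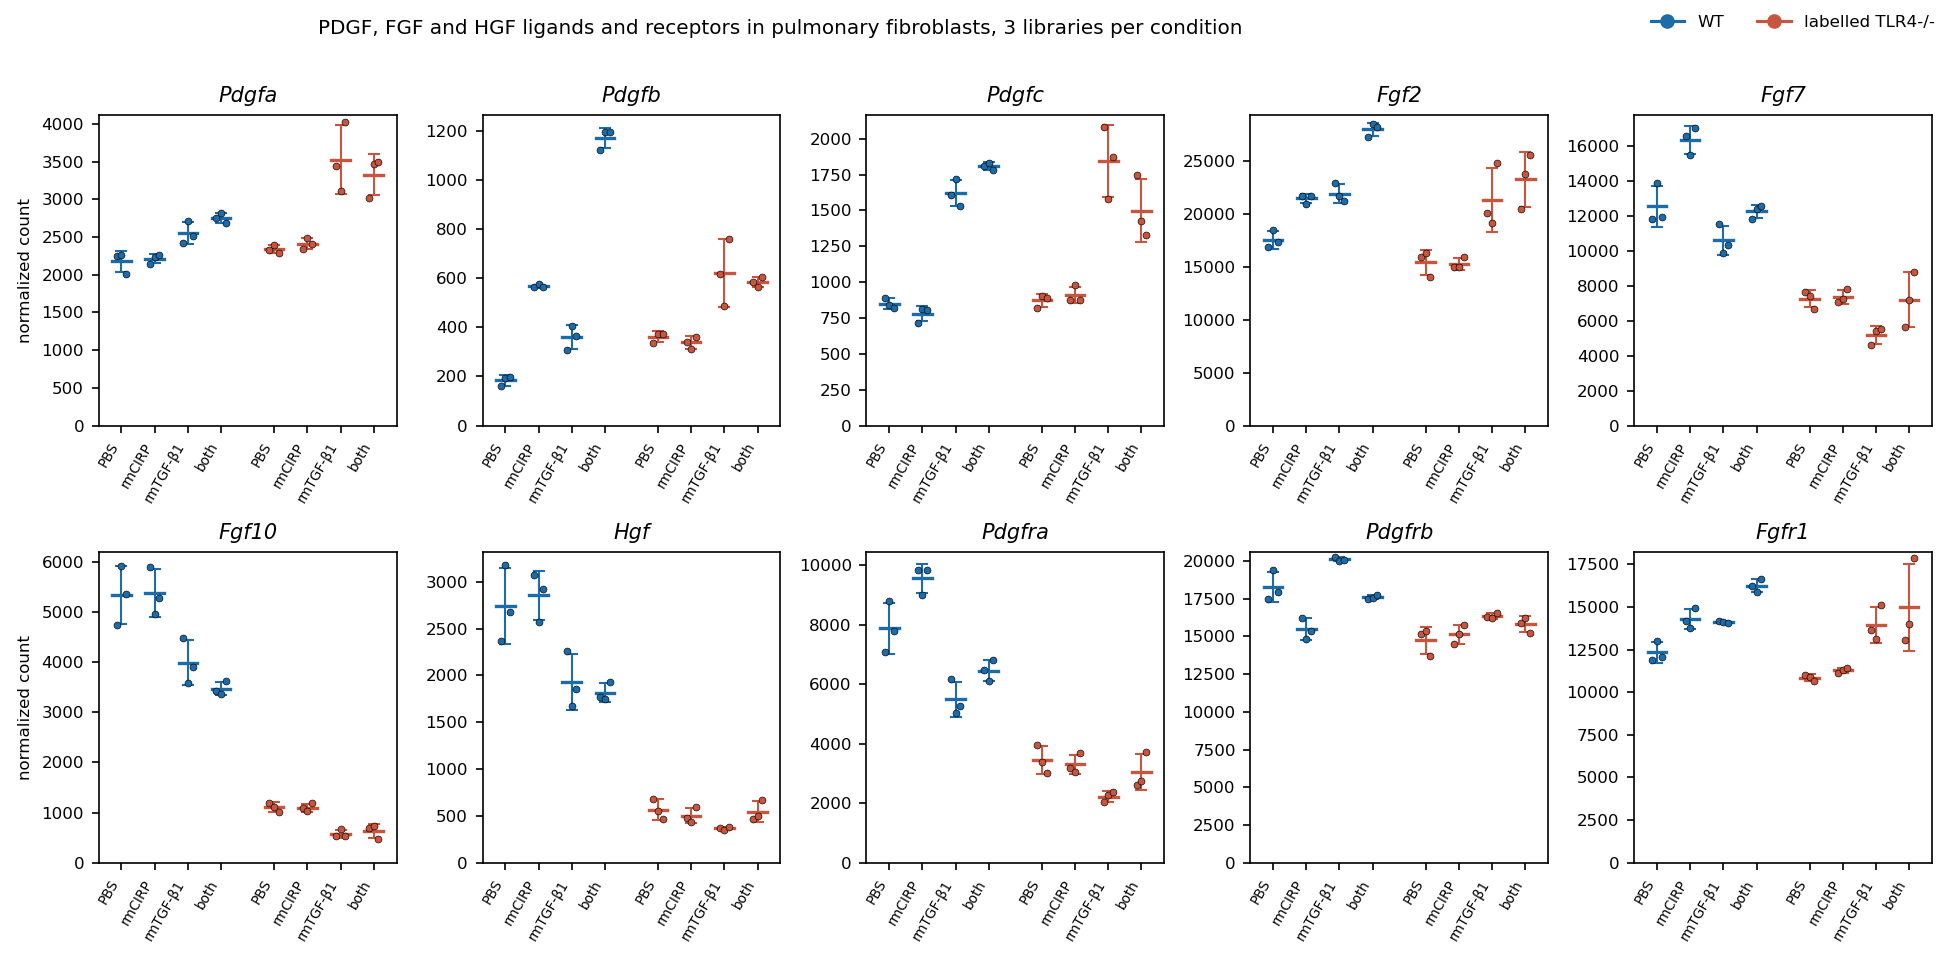
Normalized counts (vertical axes, from 0) of the 10 members in each library (points), with the mean (line) and SD (bar) of 3 libraries per condition, for WT (blue) and libraries labelled TLR4-/- (red). Pdgfb is highest in WT with both factors (mean 1172), and Fgf10 and Hgf lie lower in every library labelled TLR4-/- than in every WT library.

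The first question is which of these genes respond to extracellular CIRP in WT fibroblast cultures. Pdgfb, the chain that makes up PDGF-BB, rose 3.07-fold with rmCIRP. The ligands Fgf7 and Fgf2 and the receptors Pdgfra and Fgfr1 rose by smaller amounts, and the receptor Pdgfrb fell. In all, 6 of the 10 members passed the test (edgeR, adjusted p under 0.1 over all genes tested), 5 higher and 1 lower, beside 43.9% of all genes tested (19.8% higher and 24.1% lower). The libraries of the compared conditions did not overlap for 7 of 10 members, beside 50.8% of all genes. The median log2 fold change was 0.13 over the members and -0.02 over all genes tested.

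Pdgfb stood at 159.8, 195 and 199.8 normalized counts in the WT libraries with PBS, and at 566, 575 and 563 with rmCIRP. Every rmCIRP library was far above every PBS library, and the rmCIRP libraries lay close together. The log2 fold change was 1.62 ± 0.13 (SE, n = 3 and 3), a 3.07-fold rise with adjusted p = 8.58e-10.

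Fgf7, the keratinocyte growth factor, had 11848, 13888 and 11943.5 normalized counts with PBS and 16571, 15495 and 17071 with rmCIRP. Fgf2, the basic fibroblast growth factor, had 16914, 18558 and 17347.5 with PBS and 21749, 20984 and 21772 with rmCIRP. For both ligands all rmCIRP libraries were higher than all PBS libraries. The log2 fold changes were 0.38 ± 0.10 for Fgf7 (adjusted p = 0.00647) and 0.28 ± 0.08 for Fgf2 (adjusted p = 0.00697).

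Among the receptors, Pdgfra counts were 7060.35, 8773 and 7773 with PBS and 9824, 8995 and 9843 with rmCIRP, close to one another but without overlap. Its log2 fold change of 0.27 ± 0.11 passed narrowly (adjusted p = 0.0592). That call was lost when library 1 or 3 with PBS, or library 1 or 3 with rmCIRP, was left out (adjusted p = 0.124 to 0.199). Fgfr1, the receptor through which FGF2 acts on fibroblasts, rose from 11915, 13026 and 12084 to 14180, 13748 and 14946.5 normalized counts, a log2 fold change of 0.21 ± 0.07 (adjusted p = 0.0316). Pdgfrb, which encodes a receptor for PDGF-BB, went the other way. Its counts were 17511, 19380.5 and 17912 with PBS and 16243, 14853 and 15355.5 with rmCIRP, all lower with rmCIRP, and the log2 fold change was -0.24 ± 0.04 (adjusted p = 0.000165).

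Cell type markers moved with rmCIRP in WT cells too. The summed level of 6 mural cell markers was 43730 to 46601 normalized counts with PBS (lowest and highest library) and 31291 to 34229 with rmCIRP. Of 8 fibroblast markers 5 were lower and 1 higher, and their sum was 744415 to 806420 with PBS and 628157 to 675909 with rmCIRP. Of 13 macrophage markers 8 were lower and 4 higher, among them the LPS co-receptor gene Cd14 (3.25-fold higher) and Mrc1 (log2 fold change -0.71), while their sum, mostly Lyz2, was 89358 to 97194 with PBS and 79420 to 84380 with rmCIRP. The part of these markers in the results was not tested.

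The remaining 4 members did not pass the test with rmCIRP. Fgf10 had 4741, 5910.38 and 5361 normalized counts with PBS and 5889, 4952 and 5271 with rmCIRP, and Hgf had 2369, 3179 and 2673 with PBS and 3069.9, 2570.02 and 2926 with rmCIRP. The libraries of both epithelial ligands overlapped fully. The 95% interval of the log2 fold change ran from -0.23 to 0.24 for Fgf10 and from -0.21 to 0.32 for Hgf. For Pdgfa it ran from -0.13 to 0.17, and for Pdgfc, whose 3 rmCIRP libraries lay just below the PBS libraries at 718, 816 and 807 against 892, 838 and 817, from -0.32 to 0.07.

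The second question is how the same genes respond to TGF-β1. In WT fibroblast cultures all 3 PDGF ligands rose with rmTGF-β1, Pdgfb 1.94-fold, Pdgfc 1.90-fold and Pdgfa 1.17-fold, as did Fgf2 and, slightly, Pdgfrb. The epithelial ligands Fgf10 and Hgf and the receptor Pdgfra fell to between 69.5% and 74.5% of their PBS level. Here 8 of 10 members passed the test, 5 higher and 3 lower, beside 12.4% of all genes tested (5.77% higher and 6.65% lower). The libraries did not overlap for any of the 10 members, beside 29.7% of all genes. This comparison and the preceding one share the WT libraries with PBS.

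Pdgfc, which encodes a PDGFRα ligand, had 892, 838 and 817 normalized counts with PBS and 1611, 1719 and 1534 with rmTGF-β1. Pdgfb had 307, 404 and 367 with rmTGF-β1, against the values from 159.8 to 199.8 given for PBS. Both ligands were higher in all 3 treated libraries, and those of Pdgfb spread more. The log2 fold changes were 0.93 ± 0.09 for Pdgfc (adjusted p = 1.45e-06) and 0.96 ± 0.13 for Pdgfb (adjusted p = 5.36e-05). Pdgfa, which also encodes a PDGFRα ligand, moved from 2253, 2258 and 2015 to 2422, 2708 and 2514 normalized counts. This was a small rise with every treated library above every PBS library. The log2 fold change of Pdgfa was 0.22 ± 0.07 (adjusted p = 0.0517), and the call was lost without PBS library 3 or without rmTGF-β1 library 2 or 3 (adjusted p = 0.108 to 0.250). The exons of Pdgfa overlap those of the antisense gene 6330403L08Rik over 26.1% of their length, and without the strand setting of the counting their reads cannot be told apart.

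Fgf2 reached 22925, 21709.8 and 21251 normalized counts with rmTGF-β1, all above its PBS libraries, and its log2 fold change was 0.31 ± 0.08 (adjusted p = 0.0149). Fgf10 fell to 4474, 3589 and 3907 normalized counts and Hgf to 2264, 1672 and 1856. For both ligands the highest treated library lay just under the lowest PBS library. Fgf10 was at 74.5% of its PBS level, with a log2 fold change of -0.42 ± 0.11 (adjusted p = 0.0216). Hgf was at 70.2%, with a log2 fold change of -0.51 ± 0.13 (adjusted p = 0.0164). Both calls were lost without PBS library 2 (adjusted p = 0.122 for Fgf10 and 0.118 for Hgf) and without rmTGF-β1 library 2 (adjusted p = 0.128 and 0.111). Fgf7 pointed the same way at 11565, 9911 and 10351 normalized counts but did not pass (log2 fold change -0.25 ± 0.10, adjusted p = 0.158). It passed with no filter on low counts (edgeR, adjusted p = 3.98e-05) and with only the compared libraries (0.0243).

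Pdgfra counts with rmTGF-β1 were 6156, 5036 and 5276, clear of the PBS libraries, and the log2 fold change was -0.52 ± 0.11 (adjusted p = 0.005). Pdgfrb, at 20274, 20020 and 20068, was slightly above its PBS libraries, with a log2 fold change of 0.13 ± 0.04 (adjusted p = 0.0644), a call lost on leaving out PBS library 1 or 3 or any rmTGF-β1 library (adjusted p = 0.153 to 0.216). Fgfr1 was also higher in every treated library, at 14157, 14103 and 14044.5, but did not pass (log2 fold change 0.19 ± 0.07, adjusted p = 0.127). So the 2 PDGF receptor genes were called in opposite directions with each factor: Pdgfra higher and Pdgfrb lower with rmCIRP, Pdgfra lower and Pdgfrb higher with rmTGF-β1. Leaving out rmTGF-β1 library 2 brought the number of members called with rmTGF-β1 from 8 to 4. Over all genes it went from 2019 of 16258 to 1029 of 16524.

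**Figure D2:**
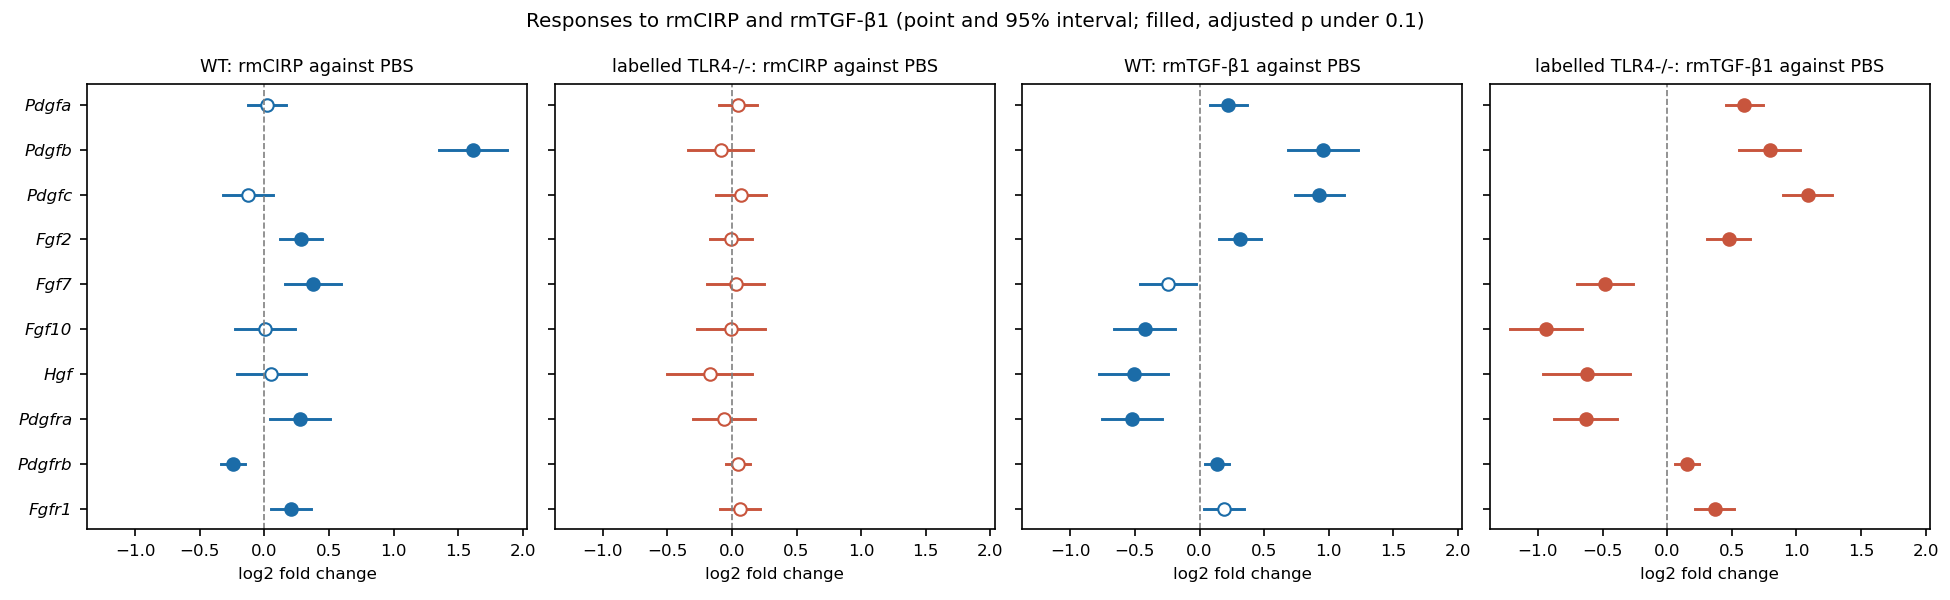
Log2 fold change (horizontal axis) of each member for rmCIRP and rmTGF-β1 against PBS in WT (blue) and libraries labelled TLR4-/- (red), with 95% intervals; filled points passed at adjusted p under 0.1. Pdgfb has the largest response to rmCIRP in WT (1.62), no member passed for rmCIRP in libraries labelled TLR4-/-, and the rmTGF-β1 columns point the same way in both genotypes.

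The combined treatment asks whether rmCIRP acts in cells that also receive rmTGF-β1. In WT cells given rmTGF-β1, adding rmCIRP raised Pdgfb, Fgf2 and Fgfr1 and lowered Pdgfrb, so 4 of 10 members passed, beside 42.2% of all genes tested (20.5% higher and 21.7% lower). The libraries did not overlap for 6 of 10 members, beside 50% of all genes. Pdgfb reached 1124, 1195 and 1196 normalized counts with both factors, the highest of any condition. Every one of these libraries lay above every library of the other 7 conditions. The log2 fold change against rmTGF-β1 alone was 1.70 ± 0.11 (adjusted p = 4.64e-11). Fgf2 was also highest in this condition, at 27351, 28548 and 28277 normalized counts, with a log2 fold change of 0.35 ± 0.08 (adjusted p = 0.00139). Fgfr1 had 16208, 15873 and 16664 normalized counts (log2 fold change 0.20 ± 0.07, adjusted p = 0.0388; adjusted p = 0.118 without library 3 with both factors), and Pdgfrb had 17479, 17577 and 17775 (log2 fold change -0.20 ± 0.04, adjusted p = 0.00146). Pdgfra and Fgf7, called with rmCIRP alone, did not pass here, with log2 fold changes of 0.23 ± 0.11 (adjusted p = 0.124) and 0.21 ± 0.10 (adjusted p = 0.132). Fgf10 had a log2 fold change of -0.21 ± 0.11 (adjusted p = 0.172).

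Set against rmCIRP alone, the combination showed the rmTGF-β1 pattern again: 9 of 10 members passed, 5 higher and 4 lower, beside 20.5% of all genes tested (10% higher and 10.5% lower), and the libraries did not overlap for any member, beside 36.4% of all genes. Pdgfc rose from the values of 718 to 816 given for rmCIRP to 1811, 1834 and 1781 normalized counts, a log2 fold change of 1.21 ± 0.09 (adjusted p = 8.95e-09). Pdgfb (1.04 ± 0.11), Fgf2 (0.38 ± 0.08), Pdgfa (0.31 ± 0.07) and Pdgfrb (0.18 ± 0.04) also rose. The 4 genes that fell were Hgf (-0.66 ± 0.13), Fgf10 (-0.63 ± 0.11), Pdgfra (-0.57 ± 0.11) and Fgf7 (-0.42 ± 0.10), the ligands for epithelium and the PDGFRα receptor gene, with adjusted p from 0.00043 to 0.00743. Fgfr1, with 0.18 ± 0.07, did not pass (adjusted p = 0.106). A departure from additivity on the log2 scale was tested as the interaction of the factors in WT cells. By edgeR no member passed (0.0492% of all genes did, 0.0369% higher and 0.0123% lower). At an unadjusted p under 0.05 there was 1 member, beside 917 of 16258 genes. DESeq2 called 0 members, beside 37 of 12350 genes. For Pdgfb the interaction was 0.08, with a 95% interval from -0.27 to 0.44, and for Pdgfc it was 0.28, from 0.01 to 0.55, with adjusted p = 0.854.

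The rmCIRP response was also measured in the libraries labelled TLR4-/-. In them, no member passed for rmCIRP against PBS by edgeR, where 0% of all genes passed. At an unadjusted p under 0.05 the count was 0 members, beside 1136 of 16258 genes. DESeq2 called 0 members, beside 33 of 14344 genes. Pdgfb had 335.89, 374 and 374 normalized counts with PBS and 342, 311 and 363 with rmCIRP, with overlapping libraries. Its log2 fold change was -0.09, with a 95% interval from -0.34 to 0.16, which leaves out the 1.62 seen in WT. The estimates of all 10 members lay between -0.17 for Hgf and 0.07 for Pdgfc. Only for Fgfr1 did the libraries not overlap, 1 of 10 members beside 13.7% of all genes.

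The difference between genotypes in the rmCIRP response was tested directly. It passed for 4 of 10 members, beside 31.4% of all genes tested (17.1% with a positive and 14.3% with a negative difference). Pdgfb differed by -1.71 ± 0.18 in log2 fold change (TLR4-/- minus WT, adjusted p = 1.73e-07) and Pdgfrb by 0.29 ± 0.06 (adjusted p = 0.00179). Fgf7 (-0.35 ± 0.15, adjusted p = 0.0912) and Fgf2 (-0.29 ± 0.11, adjusted p = 0.0632) passed narrowly. Both of these calls were lost, leaving 2 members, without WT library 1 or 3 with PBS, WT library 1 with rmCIRP, or library 1 or 2 labelled TLR4-/- with PBS. That of Fgf7 was also lost without WT library 3 or library 1 or 2 labelled TLR4-/- with rmCIRP (adjusted p = 0.128 to 0.149). Pdgfra did not pass (-0.33 ± 0.16, adjusted p = 0.14), although it was called in WT. It did pass without WT library 2 with PBS (edgeR, adjusted p = 0.0671). The same held without library 3 labelled TLR4-/- with PBS (0.0575) or with rmCIRP (0.0877). With only the compared libraries it passed as well (0.0419), and with no filter on low counts (6.17e-06). Macrophage markers also differed in this test, 6 of 13 with a positive and 4 with a negative difference, among them Cd14 (-1.76), Adgre1 (-1.07) and Mrc1 (0.69), and their part in the results of the members was not tested. With rmCIRP their summed level, mostly Lyz2, was 79420 to 84380 normalized counts in WT and 318510 to 359440 in libraries labelled TLR4-/-. The genotype label also goes with the pool of lungs and with the sex-linked genes given below, so these cannot be told apart.

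The response to rmTGF-β1 was present under both labels. In libraries labelled TLR4-/- all 10 members passed, 6 higher and 4 lower, beside 23.9% of all genes tested (12.1% higher and 11.7% lower), and no member's libraries overlapped, beside 33.8% of all genes. Pdgfc rose from 823, 906 and 892 to 2083, 1582 and 1874 normalized counts, a log2 fold change of 1.09 ± 0.09 (adjusted p = 4.86e-08). Pdgfb rose from the values given to 615, 486 and 761, by 0.79 ± 0.11 (adjusted p = 4.17e-05), and Pdgfa from 2329, 2399 and 2291 to 3436, 3114 and 4019, by 0.60 ± 0.07 (adjusted p = 2.9e-06). All treated libraries of these PDGF ligands were higher than the PBS libraries, and they spread more widely than in WT. Library 3 with rmTGF-β1, which stood apart from its replicates, was the highest for Pdgfa and Pdgfb, and for Fgf2 at 24852 normalized counts. Fgf2 rose by 0.47 ± 0.08 (adjusted p = 0.000192), Fgfr1 by 0.37 ± 0.07 (adjusted p = 0.00127) and Pdgfrb by 0.16 ± 0.04 (adjusted p = 0.0185, or 0.117 without PBS library 3).

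The genes that fell were again the epithelial ligands and Pdgfra. Fgf10 went from 1199, 1112 and 1007 to 524, 675 and 529 normalized counts, to 52.1% of its PBS level (log2 fold change -0.94 ± 0.13, adjusted p = 3.38e-05). Hgf went from 684, 554 and 467 to 368, 352 and 383, to 65% (-0.62 ± 0.16, adjusted p = 0.0101). Every treated library of both was below every PBS library. Pdgfra went from 3961, 3393 and 3010.4 to 2036, 2259 and 2371 (-0.63 ± 0.12, adjusted p = 0.00061), and Fgf7 from 7644, 7456 and 6703 to 4621, 5394 and 5542 (-0.48 ± 0.11, adjusted p = 0.00274). The test of the genotype difference in the rmTGF-β1 response passed for no member by edgeR, beside 0.0861% of all genes (0.0369% with a positive and 0.0492% with a negative difference). At an unadjusted p under 0.05 it gave 2 members, beside 1686 of 16258 genes. DESeq2 called 1, Pdgfa, beside 163 of 12350 genes. Fgf10 (-0.52, 95% interval from -0.88 to -0.15) and Pdgfa (0.37, from 0.17 to 0.58) were the 2 members with an unadjusted p under 0.05, with adjusted p = 0.286 and 0.155, and Pdgfa passed without rmTGF-β1 library 2 labelled TLR4-/- (adjusted p = 0.0318).

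Adding rmCIRP to rmTGF-β1 in libraries labelled TLR4-/- gave 4 of 10 members past the test, 3 higher and 1 lower, beside 2.69% of all genes tested (1.56% higher and 1.13% lower). The libraries did not overlap for 3 of 10 members, beside 13% of all genes. Fgf7 had 5665, 7217 and 8795 normalized counts with both factors, Pdgfra 2625, 2760 and 3728, and Hgf 468, 497 and 674. In all 3 genes library 3, the one that stood furthest apart, was the highest. Their log2 fold changes were 0.47 ± 0.11 (adjusted p = 0.069), 0.44 ± 0.12 (adjusted p = 0.0821) and 0.56 ± 0.16 (adjusted p = 0.0954). Pdgfc, at 1745, 1423 and 1329.9, overlapped the rmTGF-β1 libraries and had -0.31 ± 0.09 (adjusted p = 0.091). None of the 4 calls remained without that library 3, and none without rmTGF-β1 library 1. Of all genes, 1 of 16512 passed without that library 3 and 0 of 16523 without rmTGF-β1 library 1. The call of Pdgfc was also lost without library 2 with both factors (adjusted p = 0.138). Without rmTGF-β1 library 2 there were 2 calls, and with only the 6 compared libraries in the fit there were 0. Over all genes these fits called 79 of 16528 and 0 of 15248.

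Finally, the genotypes were compared with PBS alone. Libraries labelled TLR4-/- had 20.7% of the WT level of both Fgf10 and Hgf, 43.8% of the WT level of Pdgfra and 57.7% of that of Fgf7, with 1.95-fold higher Pdgfb. In all, 8 of 10 members passed, 1 higher and 7 lower, beside 47.1% of all genes tested (23.2% higher and 24% lower), and the libraries did not overlap for 9 of 10, beside 51.7%. The groups of cells came from separate pools of lungs, so the genotype and the pool cannot be told apart. Xist, the RNA of the inactive X chromosome, was at 0 to 3.00 normalized counts in WT libraries and at 4328 to 6096 in those labelled TLR4-/-, and the Y-linked gene Ddx3y was at 3509 to 4642 and 1847 to 2532. These sex-linked genes moved with the genotype label, and their part in the results was not tested.

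Fgf10 had 4741, 5910.38 and 5361 normalized counts in WT and 1199, 1112 and 1007 in libraries labelled TLR4-/-, and Hgf had 2369, 3179 and 2673 against 684, 554 and 467. These groups lay far apart. The log2 fold changes were -2.27 ± 0.12 for Fgf10 (adjusted p = 5.56e-13) and -2.27 ± 0.14 for Hgf (adjusted p = 9.65e-12). Pdgfra followed with 7060.35, 8773 and 7773 against 3961, 3393 and 3010.4 (log2 fold change -1.19 ± 0.12, adjusted p = 1.52e-08), and Fgf7 with 11848, 13888 and 11943.5 against 7644, 7456 and 6703 (-0.79 ± 0.11, adjusted p = 2.04e-06). Fgf10, Hgf, Pdgfra and Fgf7 were also lower in every library labelled TLR4-/- than in every WT library whatever the treatment.

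Pdgfb went the other way, from 159.8, 195 and 199.8 in WT to 335.89, 374 and 374 (0.97 ± 0.13, adjusted p = 2.99e-06). Its level labelled TLR4-/- with PBS overlapped that of WT cells with rmTGF-β1 and lay below that of WT cells with rmCIRP. Pdgfrb was lower in libraries labelled TLR4-/-, at 15142, 15374 and 13715 against 17511 and above in WT (-0.31 ± 0.04, adjusted p = 5.95e-06). Smaller differences in Fgf2 (-0.19 ± 0.08, adjusted p = 0.0573) and Fgfr1 (-0.19 ± 0.07, adjusted p = 0.0468) were lost without WT PBS library 2 (adjusted p = 0.253 and 0.236) or without PBS library 3 labelled TLR4-/- (adjusted p = 0.345 and 0.169). Pdgfa (0.10, 95% interval from -0.05 to 0.25) and Pdgfc (0.04, from -0.16 to 0.23) did not pass.

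Cell type markers moved with this comparison. All 13 macrophage markers were higher in libraries labelled TLR4-/-, with a median log2 fold change of 2.19, and none was at 3 counts or fewer in all libraries of a condition. The 8 fibroblast markers had a median of 0.00, with summed levels of 744415 to 806420 normalized counts in WT and 703383 to 798121 in libraries labelled TLR4-/-, and 1 was higher and 2 lower, among them Thy1 (-1.16 ± 0.04). The sum of 6 mural cell markers was 43730 to 46601 in WT and 30927 to 32585 in libraries labelled TLR4-/-. These genes did not move one way: mean Myh11 was 32036 in WT and 15164 under the label, Des 4570 and 10704, and Cspg4 1441 and 1524. The sum of 4 mesothelial markers was 581 to 602 in WT and 800.2 to 854 under the label, with Wt1 at 65.2 and 279. The sums of 5 endothelial markers overlapped (675 to 946 and 710.0 to 794), with Vwf at 100.4 in WT and 441 under the label, Pecam1 at 173 and 52.2, and Cdh5 at 346 and 98.7. The part of these markers in the differences between genotypes was not tested. With rmTGF-β1 the macrophage sums stayed within 80943 to 92774 in WT and 342062 to 357222 in libraries labelled TLR4-/-, and 1 of the 13 markers was lower and none higher in each genotype.

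**Figure D3:**
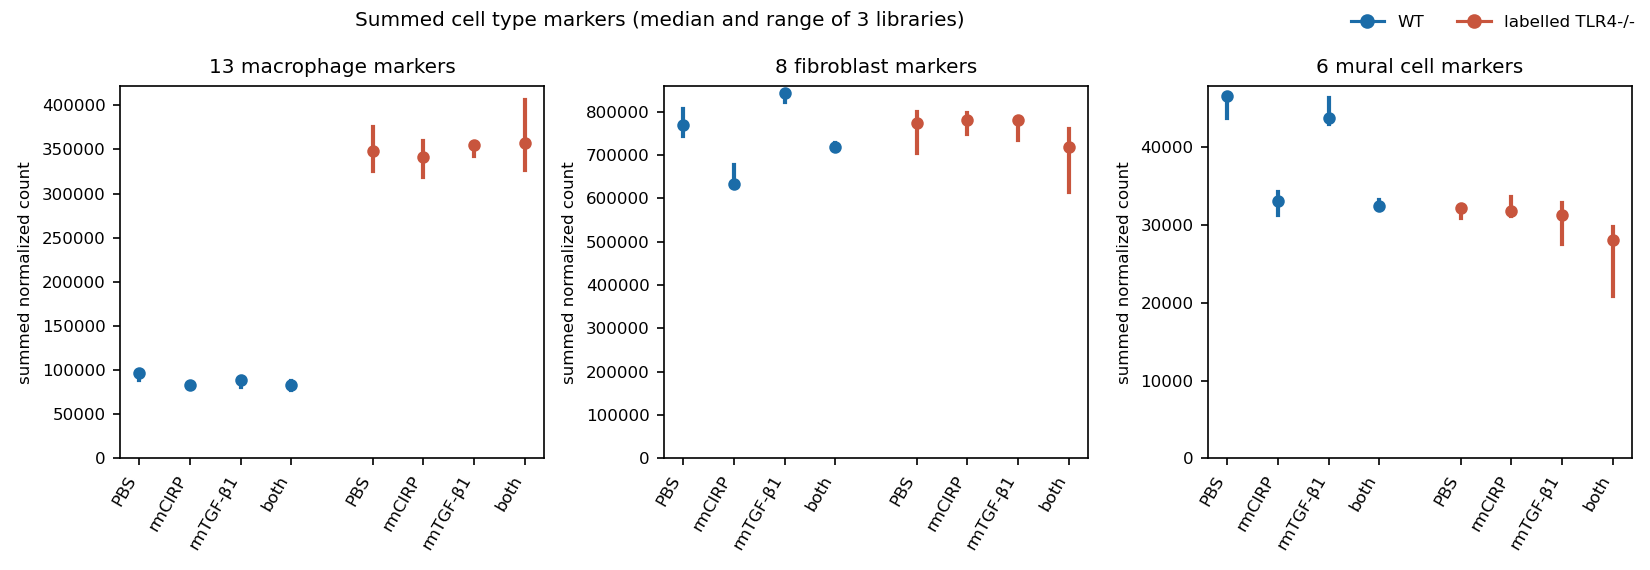
Summed normalized counts (vertical axes, from 0) of 13 macrophage, 8 fibroblast and 6 mural cell markers by condition, as the median (point) and range (bar) of 3 libraries in WT (blue) and libraries labelled TLR4-/- (red). Macrophage sums are at least 318510 in libraries labelled TLR4-/- and at most 97194 in WT, while fibroblast sums overlap with PBS and mural cell sums in WT are lower in both conditions with rmCIRP.

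The levels of Pdgfra, Fgf7 and Hgf moved together from library to library. Because the libraries fall into separate groups by genotype, correlations of log2 normalized counts are given within each genotype, over 12 libraries that share conditions, as descriptions. Pdgfra and Fgf7 had r = 0.94 in WT and 0.94 in libraries labelled TLR4-/-, and Pdgfra and Hgf had 0.90 and 0.93. The relation of both pairs was also seen among replicates, with r = 0.86 and 0.95 over the 24 libraries once the condition means were subtracted. Fgf10 did so less: with Pdgfra it had r = 0.82 in WT, 0.59 in libraries labelled TLR4-/- and 0.04 among replicates. Library 3 labelled TLR4-/- with both factors, the one that stood furthest apart, was the highest of its condition for Pdgfra, Fgf7 and Hgf and the lowest for Fgf10 (465, against 695 and 736 normalized counts). Fgf2 and its receptor gene Fgfr1 had r = 0.97 in WT, 0.95 in libraries labelled TLR4-/- and 0.76 among replicates.

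**Figure D4:**
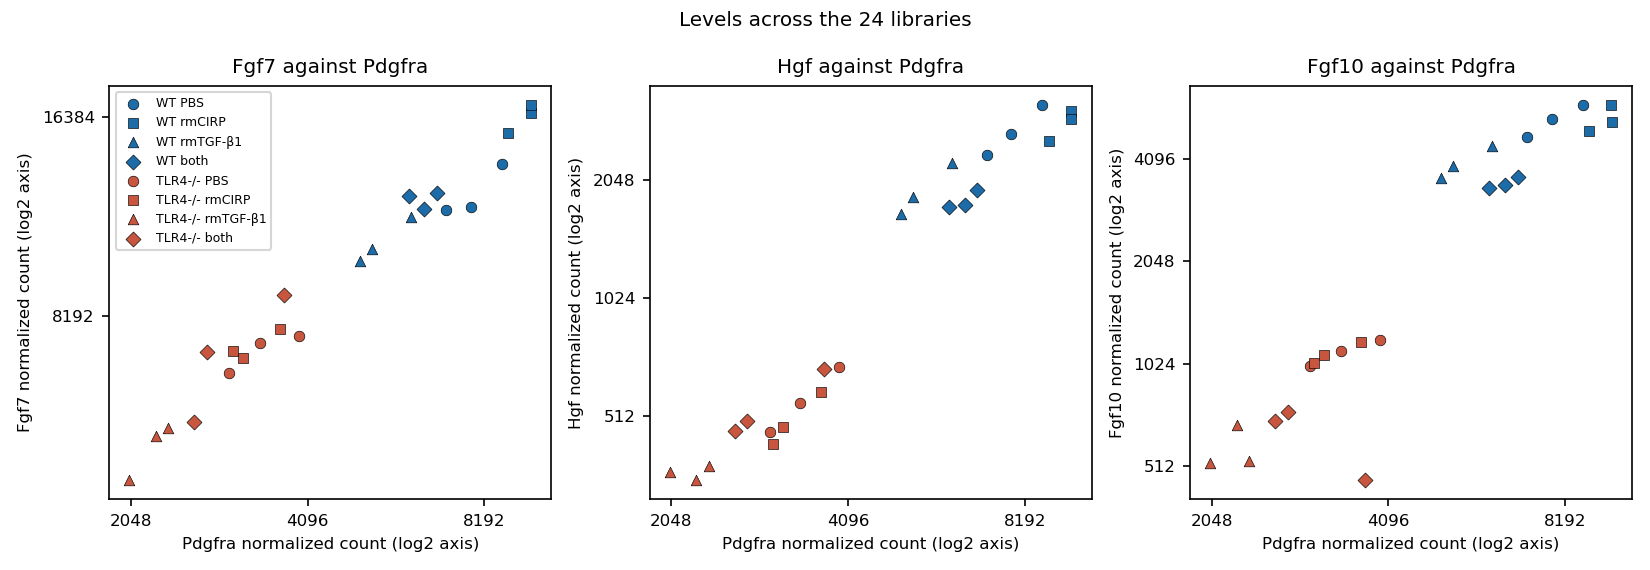
Normalized counts of Fgf7, Hgf and Fgf10 (vertical axes, log2) against Pdgfra (horizontal axes, log2) in the 24 libraries, coloured by genotype and shaped by treatment. Fgf7 and Hgf rise with Pdgfra within each genotype (r from 0.90 to 0.94). For Fgf10, 1 library labelled TLR4-/- with both factors lies well below the others of its condition (465 against 695 and 736 normalized counts).

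Among 12268 genes outside these lists that averaged 50 or more normalized counts, those whose log2 levels were most like a member over the 24 libraries differed from member to member. For Pdgfb they were Ass1, Enc1 and Prdm1 (r = 0.96, 0.96 and 0.95, and at least 0.91 within each genotype). For Pdgfc they were Fkbp5, Fam210b and Mcm6 (0.97, 0.95 and 0.95). Frem2, Fst and Gata2 were the closest to Fgf10 (0.99 each), and Frzb, Pappa2 and Vcan to Hgf (0.99, 0.98 and 0.98). For Pdgfra they were Uaca, Pcdh7 and Stk40 (0.99, 0.98 and 0.98), and for Fgf7 Plpp3, Zfp52 and Hsph1 (0.98 each). Within WT, where the gap between genotypes plays no part, r was 0.66 for Hgf and Vcan and 0.70 for Hgf and Pappa2. For Fgf10 and Gata2 it was 0.76. Once the condition means were subtracted, r over these pairs ran from 0.28 for Pdgfb and Enc1 to 0.95 for Fgf7 and Zfp52.

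The rest of the pathways was described by 2 lists. Of 20 other ligands, receptors and binding proteins 16 passed the filter, and of these 8 passed with rmCIRP in WT cells (3 higher, 5 lower, median log2 fold change 0.00), near the 43.9% of all genes tested. With rmTGF-β1 8 of the 16 passed (4 higher, 4 lower, median -0.20, against -0.02 over all genes), beside 12.4% of all genes. Met, the receptor for HGF, rose with rmCIRP from 319, 304 and 286 to 585, 644 and 644 normalized counts, a log2 fold change of 1.04 ± 0.07 (adjusted p = 1.42e-10). In libraries labelled TLR4-/- it had -0.08 ± 0.08, and the difference between genotypes was -1.12 ± 0.11 (adjusted p = 4.99e-08). So in WT cells with rmCIRP the level of Met was 2.05-fold higher while that of its ligand gene Hgf did not pass. With rmTGF-β1 in WT cells, Met and Hgf both fell (-0.44 ± 0.08 for Met, adjusted p = 0.000913).

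Fgf11, an intracellular FGF family member, was lower with rmCIRP at 36.1, 43.2 and 41.5 normalized counts against 59.7, 87.9 and 74.9 with PBS (-0.88 ± 0.17, adjusted p = 0.000288). Fgf18, a ligand of FGF receptors, rose with rmTGF-β1 from 115, 124 and 103 to 293, 261 and 256 normalized counts (1.23 ± 0.20, adjusted p = 0.000272). Fgf1 fell from 83.7, 81.9 and 73.9 to 43.4, 45.0 and 42.3 (-0.88 ± 0.19, adjusted p = 0.00501), and the receptor gene Fgfr2 from 1186, 1155 and 1296 to 825, 735 and 862 (-0.59 ± 0.15, adjusted p = 0.0151). For each of these 4 genes the libraries of the compared conditions did not overlap. Among all genes tested this held for 50.8% with rmCIRP and 29.7% with rmTGF-β1. The 4 genes were named for their large fold changes in these same comparisons, so the lack of overlap is no separate support.

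All 20 genes of the list of signal transducers and feedback regulators passed the filter. With rmCIRP in WT cells 10 passed the test, 5 higher and 5 lower, with a median of 0.01, near the 43.9% of all genes tested. Spry1, a feedback inhibitor of receptor kinase signalling, fell from 666, 652 and 700.477 to 390.499, 339.5 and 383 normalized counts (-0.86 ± 0.12, adjusted p = 8.91e-06), whereas its relatives Spry2 (0.37) and Spry4 (0.44) rose. With rmTGF-β1 in WT cells 8 passed and all 8 were lower, with a median of -0.10, beside 12.4% of all genes (6.65% lower), among them Dusp6 (-0.28), which inactivates ERK, Spry2 (-0.43), Spry4 (-0.26) and the ETS factor genes Etv1 (-0.34) and Etv5 (-0.17). In libraries labelled TLR4-/- neither list had a gene past the test with rmCIRP by edgeR, beside 0% of all genes. At an unadjusted p under 0.05 the lists had 0 and 1, beside 1136 of 16258 genes. DESeq2 called 0 and 0, beside 33 of 14344 genes. With rmTGF-β1 under that label, 8 of 16 and 8 of 20 passed, 4 higher and 4 lower in the first list and 3 higher and 5 lower in the second, beside 23.9% of all genes (12.1% higher and 11.7% lower).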

How the data were processed

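The libraries were made with a stranded total RNA kit. For each of the 24 libraries the authors deposited raw counts of reads per gene name, from ht-seq after alignment with STAR, and the submitters' processing notes name FastQC, HTSeq and the build NCBIM37. The strand setting of the counting is not given in the sources used here. These counts were not normalized by the authors. The 5 tally lines that follow the gene names in each file made up 14.5 to 16.1% of its total and were left out.

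Counts were tested in R 4.3.3 with edgeR 4.0.16 (filterByExpr, TMM, glmQLFit and glmQLFTest, a mean for each of 8 conditions fitted to all 24 libraries, no replicate block), with Benjamini-Hochberg adjustment over the 16258 genes tested in each of 11 comparisons and calls at adjusted p under 0.1. The common biological coefficient of variation was 0.0571. SE was obtained by dividing the absolute log2 fold change by the square root of F. Normalized counts, counts divided by median-of-ratios size factors of DESeq2 1.42.0, describe levels, and exon lengths come from GENCODE M21. The pipeline was tested on simulated data. The members and gene lists were chosen with earlier results of these data known. Every member was tested in every comparison, but not every difference that did not pass is given. Of the lists, the 3 called genes with the largest log2 fold change for rmCIRP and for rmTGF-β1 in WT cells, at a mean of at least 50 normalized counts, were named, and other list genes were named after their values were seen. Genes like a member are the 3 with the highest Pearson r of log2(normalized count + 1), for members whose condition means differ by at least 1 in log2. The labels do not say whether replicate numbers mark shared cultures. Alternatives were DESeq2, RLE scaling, no filter, a mean count of at least 10, a replicate block, only the compared libraries, adjusted p under 0.05 and leaving out each library.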

Additional observations from a re-analysis of the deposited data

Results flagged for a closer look

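The response to rmCIRP differed between WT cells and those labelled TLR4-/- for 4 of 10 members, by a test of the difference itself, which 31.4% of all genes tested passed, so the count is near that of all genes. Pdgfb differed by -1.71 in log2 fold change, with all 3 treated libraries above all PBS libraries in WT and overlapping libraries under the other label. Pdgfrb differed by 0.29, lower with rmCIRP in every WT library and overlapping under the other label. Fgf7 differed by -0.35 and Fgf2 by -0.29, both with adjusted p (edgeR) above 0.05 and both higher in every WT library with rmCIRP than in every one with PBS, and both calls were lost when any of several single libraries was left out.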

How the results depend on the processing

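No called difference of a member changed direction under any of the alternatives (0 of 713 values), and 39 of 897 values of uncalled differences did, all of them at most 0.111 in size on the log2 scale in the fit as reported. With rmCIRP in cells labelled TLR4-/-, and for the interaction in WT cells, no alternative called a member. Apart from leaving out a library, the alternatives called 6 to 10 members for rmTGF-β1 in WT cells, against 8 as reported. Of all genes tested they called 1398 to 2983. The number of members called for rmCIRP added to rmTGF-β1 in WT cells went from 4 to 8 with no filter and to 9 with only the compared libraries. For the same addition under the TLR4-/- label it went from 4 to 0 with only the compared libraries and to 0 at adjusted p under 0.05. For the genotype difference in the rmCIRP response it went from 4 to 7 with no filter and to 2 at adjusted p under 0.05, and for that in the rmTGF-β1 response from 0 to 1 with DESeq2 and to 3 with no filter. Over all genes, 6039 of 34285 were called for the WT addition with no filter and 7524 of 15085 with only the compared libraries. Under the TLR4-/- label the addition called 0 of 15248 with only the compared libraries and 19 of 16258 at adjusted p under 0.05. The genotype difference in the rmCIRP response called 4533 of 34285 with no filter and 3991 of 16258 at adjusted p under 0.05. That in the rmTGF-β1 response called 163 of 12350 with DESeq2 and 563 of 34285 with no filter. The causes were not tested.

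Leaving out 1 library at a time gave 4 to 7 members for rmTGF-β1 in WT cells, 0 to 6 for rmCIRP added to rmTGF-β1 under the TLR4-/- label, 2 to 5 for the genotype difference in the rmCIRP response and 0 to 1 for that in the rmTGF-β1 response. It moved the log2 fold change with rmCIRP in WT cells of Fgf10 between -0.071 and 0.093, of Hgf between -0.026 and 0.184 and of Pdgfa between -0.034 and 0.060, and the Pdgfb interaction between -0.016 and 0.173. Over all genes, leaving out 1 library gave 1029 to 1690 calls for rmTGF-β1 in WT cells. It gave 0 to 2674 for rmCIRP added to rmTGF-β1 under the TLR4-/- label. The genotype differences gave 4237 to 4934 calls for rmCIRP and 0 to 119 for rmTGF-β1, among 16509 to 16532 genes.

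Deviations of same-numbered libraries had a mean correlation of 0.012 over 84 pairs, from -0.117 to 0.369, with 4 above 0.1. Of 24 libraries 12 were closest to their own number. These values do not decide whether same-numbered libraries shared a culture. A replicate block raised the members called with rmTGF-β1 in WT cells from 8 to 9 and for rmTGF-β1 added to rmCIRP from 9 to 10, by Fgfr1 in both (adjusted p = 0.0945 and 0.0764), and changed no other call of a member. Over all genes these comparisons then had 2109 and 3414 calls, against 2019 and 3329 without the block. Over all genes, calls for rmCIRP under the TLR4-/- label went from 0 to 33 with DESeq2, 149 with no filter, 29 with only the compared libraries and 1 with the block. Those for rmCIRP added to rmTGF-β1 under that label went from 437 to 902, 1580, 0 and 810, and to 19 at adjusted p under 0.05. Those for the genotype difference in the rmTGF-β1 response went from 14 to 163 with DESeq2, 563 with no filter, 23 at a mean count of at least 10, 22 with the block and 6 at adjusted p under 0.05. For the interaction they went from 8 to 37, 198 and 125 with DESeq2, no filter and only the compared libraries, and to 4 at adjusted p under 0.05. RLE scaling moved the median of all genes by at most 0.011.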

Other observations

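Exon overlaps with other genes were small for most members: beside Pdgfa, the longest was 13.2% of the exon length for Fgf2, mostly with Nudt6 on the opposite strand, which had a mean of 34.4 raw counts per library against 20640.1 for Fgf2. For Pdgfa, the antisense partner had a mean of 350.5 raw counts against 2688 for Pdgfa.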
